A study of Mus musculus with 6 samples.

Results

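The MiT/TFE family consists of 4 transcription factors in the mouse, encoded by Tfec, Mitf, Tfeb and Tfe3. The members were taken by gene symbol, with the brightest probe set of each gene, and all 4 were found among 19938 genes measured. Affymetrix Mouse Gene 1.0 arrays measured them in cells labelled dendritic (n = 3) and cells labelled macrophage (n = 3). Both came from bone marrow of C57B/6 mice, grown for 6 days with 20 ng/ml of GM-CSF, a cytokine that expands myeloid cells, and both were left unstimulated. The labels name neither the way the cells were separated nor the mouse or culture behind each replicate. Every p-value therefore reflects no more than the spread among the 6 arrays, and that spread may be technical.

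MiT/TFE proteins are basic helix-loop-helix leucine zipper (bHLH-Zip) factors that bind as homodimers or as heterodimers with each other to E-boxes and M-boxes. Tfeb and Tfe3 drive lysosomal and autophagy genes through an E-box variant called the CLEAR element. When nutrients are plentiful, the kinase complex mTORC1 at the lysosome phosphorylates Tfeb, Tfe3 and Mitf and keeps them in the cytoplasm. Mitf is the master regulator of melanocytes and is also needed in osteoclasts and mast cells. Tfec is the member most restricted to the macrophage lineage, where the factor PU.1 drives its promoter.

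The promoter of Tfec is shown because Tfec had the largest difference of the family. RefSeq (build GRCm38.p6) gives 1 promoter for Tfec, covering 250 bases before to 50 after the gene start at chr6:16898392-16898691 on the minus strand. Capitals mark the PU-box letters GAGGAA, searched on both strands, which occur once in this window, 33 bases after the start on the opposite strand.
Tfec: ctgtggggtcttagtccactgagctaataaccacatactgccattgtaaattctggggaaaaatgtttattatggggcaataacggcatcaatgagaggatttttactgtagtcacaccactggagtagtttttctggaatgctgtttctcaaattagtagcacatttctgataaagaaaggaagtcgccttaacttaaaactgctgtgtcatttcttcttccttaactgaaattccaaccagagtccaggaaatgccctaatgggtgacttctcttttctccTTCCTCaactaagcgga
Of 32851 promoters searched, 28.3% hold these letters. The search left out a whole chromosome, duplicates and windows of another length, and all promoter shares below are of the promoters searched. Mitf, Tfeb and Tfe3 have 3, 3 and 2 promoters among those searched, and none of these 8 windows holds GAGGAA. None of the 9 member promoters holds the E-box CACGTG or the M-box core TCATGTG.

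Levels below are log2 values after RMA, as deposited, and differences are dendritic minus macrophage. Array medians, taken over all probe sets, ran from 4.79 to 4.96. By marker genes, 9 of 9 measured macrophage markers were lower and 9 of 10 dendritic markers higher in the dendritic arrays. The exception was Kmo, which was lower. Of all genes, 11.6% were called lower and 9.98% higher. The marker lists were chosen with earlier results of these data known, so these counts are no independent check of the labels. The mean log2 value of the macrophage markers was 5.08 to 5.22 in dendritic and 9.89 to 10.16 in macrophage arrays. That of neutrophil markers was 6.06 to 7.40 in dendritic and 6.18 to 7.64 in macrophage arrays. Of these 10 markers 1 was called lower, near the 11.6% of all genes (Mpo, -0.74, limma adjusted p = 0.0207). Without dendritic replicate 1 (0.0519) or 2 (0.0795), or without macrophage replicate 1 (0.0611) or 3 (0.0740), the Mpo call was lost. Replicate 1 of each population stood apart in neutrophil markers, with means of 7.40 (dendritic) and 7.64 (macrophage) against 6.06 to 6.38 on the other 4 arrays, and 8 of 10 markers were highest there in both populations. Without both of these arrays all 4 members kept their calls, at -4.96 (Tfec), -2.28 (Mitf), -0.52 (Tfeb) and -0.55 (Tfe3). Of 12 mast cell genes 10 stayed under 4.96 in both population means, as did 8726 of all 19938 genes. Of 9 lymphocyte markers 7 stayed under it, and Cd79a was higher (0.81, adjusted p = 0.0129), a call lost without dendritic replicate 2 (0.0545) or macrophage replicate 2 (0.0506). Of 7 stromal and erythroid markers 5 stayed under it and limma called none, 0 also at an unadjusted p of 0.05.

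All 4 members were lower in the dendritic population, by very different amounts. Tfec had the largest difference and Mitf the next, while Tfeb and Tfe3 differed little. Across all genes 11.6% were called lower at a Benjamini-Hochberg adjusted p of 0.05 in limma, and 21.6% were called in either direction. For none of the 4 members did dendritic and macrophage values overlap, as was so for 34.0% of all genes in either direction and 16.7% in this one. The median difference was -1.49 over the members and 0.03 over all genes. In bulk samples fewer cells of a type and less RNA per cell cannot be told apart.

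Tfec (probe set 10543239) had log2 values of 4.89, 4.81 and 4.44 in the dendritic arrays and 9.30, 9.87 and 9.28 in the macrophage arrays. The dendritic values lay near the median of all probe sets, and every macrophage value stood far above them. The difference was -4.77 ± 0.19 (SE, n = 3 arrays per population), a 27.4-fold lower value on this scale (limma adjusted p = 6.87e-07). From the lowest difference upwards, Tfec ranked 31 of 19938 genes. Without detection calls it is not known whether the dendritic population expressed Tfec, and RMA compresses differences of dim probe sets. The macrophage markers moved with it, and their part in the Tfec difference was not tested.

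Mitf (probe set 10540248), which shares partners and target sites with Tfec, had log2 values of 5.43, 5.16 and 5.04 in dendritic and 7.90, 7.62 and 7.16 in macrophage arrays. The dendritic arrays were again all low and close to the array medians. The difference was -2.35 ± 0.20 (SE), or 5.09-fold lower, with a 95% interval from -2.80 to -1.90 (limma adjusted p = 4.14e-05). A second Mitf probe set (10540265) was dimmer, at 2.36, 2.15 and 2.55 in dendritic and 3.71, 2.92 and 2.95 in macrophage arrays. It also had no overlap but a smaller difference of -0.84 ± 0.24 (SE), which was not called when all 35556 probe sets were tested (adjusted p = 0.0673). The mean of both probe sets gave a Mitf difference of -1.59 (adjusted p = 0.000351). Mitf has 3 RefSeq promoters, and the transcripts that each probe set reads were not analysed here.

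Tfeb (probe set 10445729), the best studied driver of lysosome biogenesis, had log2 values of 5.60, 5.92 and 6.12 in dendritic and 6.46, 6.56 and 6.52 in macrophage arrays. The macrophage arrays lay close together and the dendritic arrays were spread below them. The difference was -0.64 ± 0.15 (SE), or 1.56-fold lower, with a 95% interval from -0.99 to -0.29 (limma adjusted p = 0.0158). Leaving out macrophage replicate 2 (adjusted p = 0.0659) or macrophage replicate 3 (0.0533) ended the call, within 0.00516 to 0.142 over 18 alternatives.

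Tfe3 (probe set 10598409), which overlaps with Tfeb in lysosomal gene control, had log2 values of 6.78, 6.59 and 6.87 in dendritic and 7.55, 7.13 and 7.41 in macrophage arrays. The gap between the highest dendritic and the lowest macrophage array was about as wide as the range among the dendritic arrays. The difference was -0.62 ± 0.15 (SE), or 1.54-fold lower, with a 95% interval from -0.96 to -0.28 (limma adjusted p = 0.0161). The Tfe3 call ended on leaving out dendritic replicate 2 (adjusted p = 0.0641), macrophage replicate 1 (0.0520) or macrophage replicate 3 (0.0598), within 0.00590 to 0.0954 over the alternatives.

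**Figure D1:**
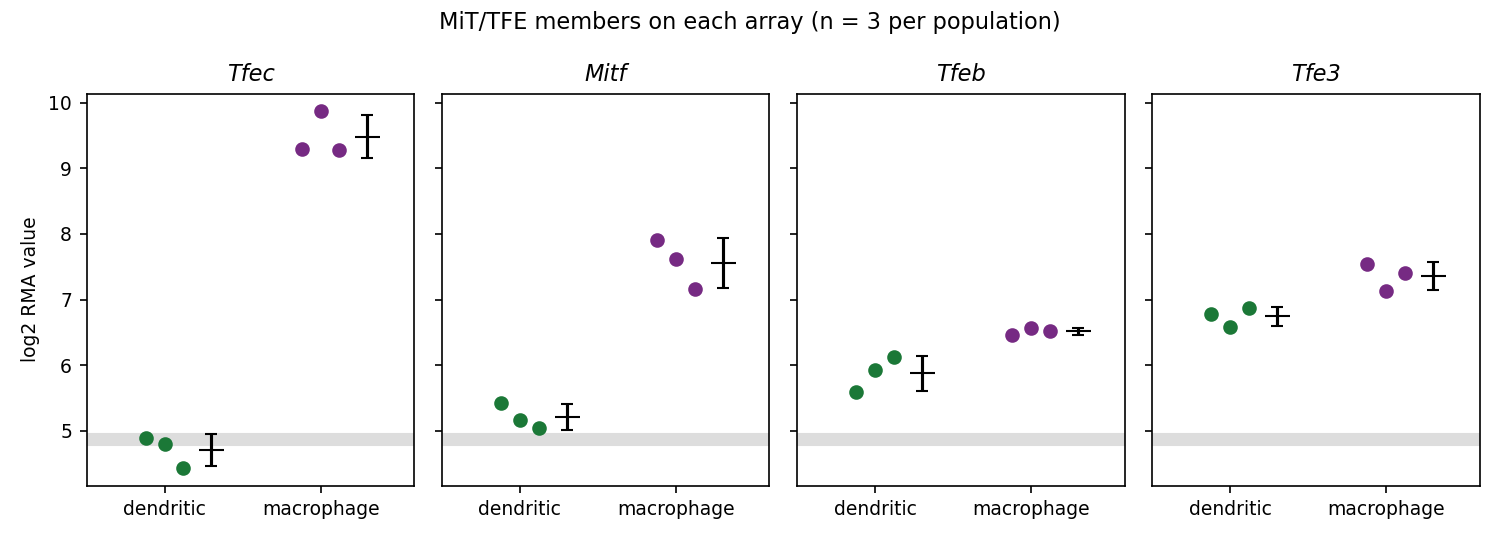
Log2 RMA values (y axis) of Tfec, Mitf, Tfeb and Tfe3 on each array, by population; points are arrays, and bars give the mean and SD of 3 arrays. The grey band is the range of array medians, 4.79 to 4.96; Tfec runs from near this band in the dendritic arrays to 9.28 or more in the macrophage arrays, while Tfeb and Tfe3 differ by less than 1 unit.

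The sizes were compared within arrays, as one member's log2 value minus another's. For Tfec minus Tfeb this was -1.69 to -0.71 in dendritic and 2.76 to 3.30 in macrophage arrays, a shift of -4.14 ± 0.33 (SE, n = 3 per population). Tfec minus Tfe3 shifted by -4.16 ± 0.37 and Tfec minus Mitf by -2.43 ± 0.28. Tfec thus differed more than each other member, with no overlap between populations. With its brighter probe set, Mitf also differed more than Tfeb (1.71 ± 0.35 for Tfeb minus Mitf) and Tfe3 (1.73 ± 0.27 for Tfe3 minus Mitf). The dimmer Mitf probe set differed by -0.84 ± 0.24 (SE), close to Tfeb (-0.64) and Tfe3 (-0.62). How far Mitf stood apart from them thus depends on the probe set. Each of these 5 pairs had an exact permutation p of 0.1 (2-sided), the smallest that 3 against 3 arrays allows, and 0.12 after adjustment over 6 pairs. That test ignored the replicate numbers; with them kept as pairs, the exact permutation p was 0.25, the smallest that 3 pairs allow. The pair Tfeb minus Tfe3 shifted by -0.02 ± 0.22 (exact p = 1.0) and overlapped, and its sign turned in 5 alternatives. The data do not order Tfeb and Tfe3.

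**Figure D2:**
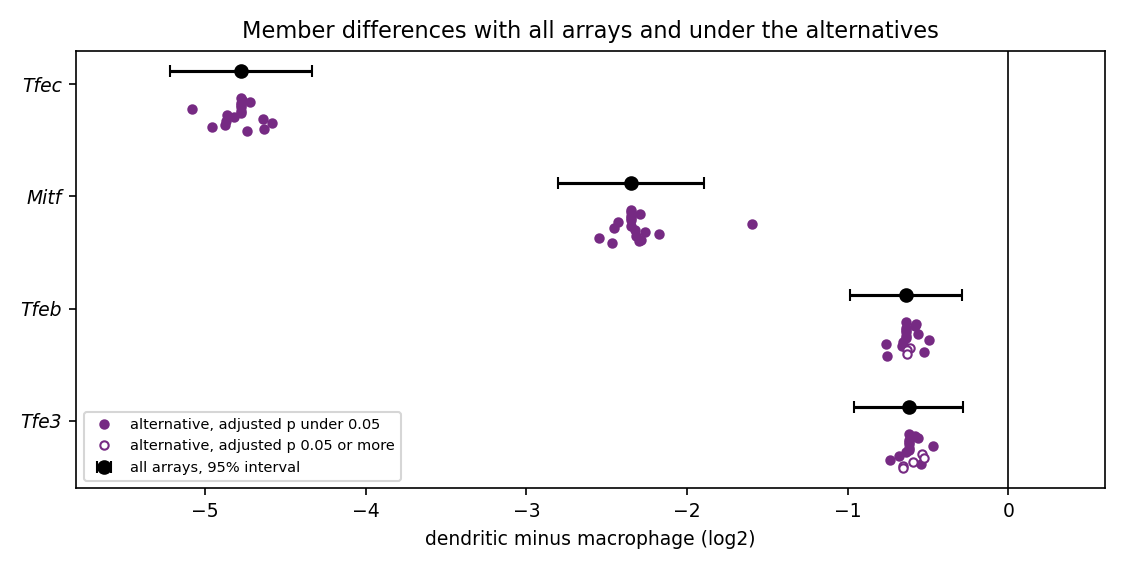
Dendritic minus macrophage difference (x axis, log2) of each member: black points with 95% intervals use all arrays, and small points are the 18 alternatives, filled where the adjusted p was under 0.05. Every point lies below 0; all Tfec and Mitf points are filled, 15 of 18 Tfeb points and 13 of 18 Tfe3 points are, and the isolated Mitf point at -1.59 is the mean of both probe sets.

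The genes whose profiles came nearest to Tfec were found by the root mean square distance of log2 values centred on each gene's mean over the 6 arrays. They were Plxdc2, a plexin domain protein (distance 0.16, difference -4.70), Cd200r4 (0.22, -4.75), the inhibitory IgG receptor Fcgr2b (0.23, -4.44), the inhibitory receptor Pilra (0.23, -5.01) and the SLAM family receptor Cd84 (0.27, -4.45). Their mean log2 values ran from 3.50 to 5.67 in dendritic and from 8.25 to 10.2 in macrophage arrays. Cd200r4 and Fcgr2b have close relatives with similar sequences, so their probe sets are uncertain. Nearest to Mitf were P2ry10b (0.10), Svil (0.11), the mitochondrial superoxide dismutase Sod2 (0.13), Acer3 (0.13) and Lrmp (0.14), with differences from -2.44 to -2.18. Tfeb lay nearest to Slc25a15, Spata13, B4galt1, Pip4p2 and Dbf4 (0.04 to 0.06), and Tfe3 to Wdr34, Iars, Ddrgk1, Usp5 and Hibch (0.05 to 0.07). With only 6 arrays in 2 populations, any gene with a like difference comes near, so this is a description.

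Signals and partner factors that act on Mitf or Tfec did not move one way. Of 14 measured, 5 were higher and 3 lower (median 0.00), where 9.98% of all genes were called higher and 11.6% lower. PU.1, encoded by Spi1, had log2 values of 9.14, 8.73 and 8.82 in dendritic and 9.74, 9.66 and 9.63 in macrophage arrays, bright in both. It was lower by a small amount, -0.78 ± 0.14 (SE; limma adjusted p = 0.00363), a call lost without both arrays numbered 2 (0.0667) or both numbered 3 (0.0508). The M-CSF receptor Csf1r, whose signal acts on Mitf in osteoclast precursors, was lower by far more, -5.76 ± 0.15 (adjusted p = 9.59e-08). Nfatc1, a partner of Mitf in osteoclasts, was lower too (-0.83 ± 0.13, adjusted p = 0.00159).

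The interleukin-4 receptor chain Il4ra, whose signal induces Tfec in macrophages, went the other way from Tfec, at 9.54, 9.69 and 9.75 in dendritic and 8.23, 8.73 and 8.72 in macrophage arrays. Its difference was 1.10 ± 0.16 (SE; limma adjusted p = 0.00115), and its signal transducer Stat6 differed by 0.18 ± 0.15 (adjusted p = 0.502, not called). Kit, which acts on Mitf in melanocytes and mast cells, was higher by 2.77 ± 0.45 (adjusted p = 0.00189), although its dendritic values of 8.60, 7.07 and 6.50 were spread. Pias3, an inhibitor of Mitf, was higher by 1.39 ± 0.14 (adjusted p = 0.000127). The coactivator Crebbp (0.65) and Creb1 (0.66), which binds the Mitf promoter in melanocytes, were higher, and both calls were lost without macrophage replicate 2 (adjusted p = 0.0930 and 0.0891) or macrophage replicate 3 (0.114 and 0.0787). That of Crebbp was also lost without dendritic replicate 1 (0.0719) or dendritic replicate 2 (0.101). Jak1, Ctnnb1 and Ep300 were not called (-0.19 to -0.18), nor was Lef1 (0.51, adjusted p = 0.0738; 0.0278 with the replicate number as a block), which was called without dendritic replicate 1 (0.00687). Fos was not called (-1.32, adjusted p = 0.0836), but was without dendritic replicate 3 (0.0107) or macrophage replicate 3 (0.0496).

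The genes that hold MiT/TFE proteins at the lysosome went both ways. Of 22 measured in the mTORC1, Rag and folliculin axis, 5 were higher and 8 lower (median -0.17). Over all genes, 9.98% were called higher and 11.6% lower. The higher ones belonged mainly to mTORC1 and its regulators, and the lower ones mainly to Ragulator and the folliculin complex. Not every gene of a complex was called. The mTORC1 scaffold Rptor differed by 1.97 ± 0.13 (SE; limma adjusted p = 8.84e-06) and the kinase Mtor by 1.22 ± 0.15 (0.000315). Their inhibitors Tsc1 (1.83 ± 0.14, adjusted p = 1.86e-05) and Depdc5 (0.88 ± 0.12, 0.000621) were higher as well. Mlst8, Rheb, Tsc2, Nprl2 and Nprl3 were not called (-0.22 to 0.37).

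Ragulator anchors the Rag GTPases to the lysosome, and 4 of its 5 subunits were lower. Lamtor4 had log2 values of 7.52, 7.65 and 7.36 in dendritic and 9.89, 9.38 and 9.69 in macrophage arrays, a difference of -2.14 ± 0.16 (SE; limma adjusted p = 1.93e-05). The dendritic values were all well below the macrophage values. Lamtor3 (-1.49 ± 0.12), Lamtor2 (-0.81 ± 0.15) and Lamtor1 (-0.77 ± 0.13) followed, with adjusted p of 0.00380 or less, and Lamtor5 was not called (-0.10).

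Folliculin (Flcn) and its partners Fnip1 and Fnip2 activate RagC and RagD, the step that hands Tfeb and Tfe3 to mTORC1. All 3 were lower. Fnip2 had log2 values of 5.29, 5.95 and 6.15 in dendritic and 8.01, 8.10 and 8.09 in macrophage arrays, a difference of -2.28 ± 0.21 (SE; limma adjusted p = 6.49e-05). Fnip1 differed by -1.23 ± 0.14 and Flcn by -0.96 ± 0.13 (adjusted p = 0.000263 and 0.000675). The call of each of the 3 genes held in all 18 alternatives.

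The paired Rag genes moved in opposite directions. Rragc had log2 values of 7.32, 7.35 and 7.36 in dendritic and from 7.95 to 8.26 in macrophage arrays, a difference of -0.73 ± 0.13 (SE; limma adjusted p = 0.00319). Rragd, itself a reported MiT/TFE target, had 5.09, 5.53 and 5.85 in dendritic and 4.61, 4.20 and 4.28 in macrophage arrays. It was higher by 1.12 ± 0.21 (adjusted p = 0.00376), with no overlap. All its macrophage values lay below the array medians, and the Rragd call was lost without both arrays numbered 2 (limma adjusted p = 0.0603). Rraga was not called (-0.51, adjusted p = 0.0509; 0.0120 with the replicate number as a block), but was without dendritic replicate 1 (0.0180), and Rragb was dim in both populations (0.21, not called). The amino acid sensor Slc38a9 was not called either (-0.46, adjusted p = 0.0691; 0.0208 with the block), but was without dendritic replicate 1 (0.0213).

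Calcineurin removes the phosphates after calcium release through the channel Mcoln1, and 14-3-3 proteins hold the phosphorylated factors in the cytoplasm. Of 18 genes in this group, 2 were higher and 2 lower, and 14 were not called (median 0.10), shares near the 9.98% and 11.6% of all genes. The catalytic calcineurin chain Ppp3cc was higher by 2.02 ± 0.19 (SE; limma adjusted p = 8.11e-05), while the chains Ppp3ca (0.50) and Ppp3cb (0.45) and the regulatory chain Ppp3r1 (-0.08) were not called. Ppp3cb was called without dendritic replicate 1 (adjusted p = 0.0183). Mcoln1 (-0.48 ± 0.13, adjusted p = 0.0279) and the 14-3-3 gene Ywhab (-0.82 ± 0.24, 0.0387) were lower. The Mcoln1 call held in 9 of 18 alternatives, with an adjusted p of 0.0956, 0.0665, 0.0762 and 0.0977 without dendritic replicate 2, macrophage replicate 1, macrophage replicate 2 and macrophage replicate 3. The Ywhab call held in 10, with 0.132, 0.129, 0.0905, 0.110 and 0.0665 without dendritic replicate 2, dendritic replicate 3, macrophage replicate 1, macrophage replicate 2 and macrophage replicate 3. The 14-3-3 gene Ywhaq was higher (0.45 ± 0.13, adjusted p = 0.0339). Its call ended on leaving out dendritic replicate 3 (0.126), macrophage replicate 2 (0.145) or macrophage replicate 3 (0.113). The other 14-3-3 genes (Ywhae, Ywhag, Ywhah, Ywhaz and Sfn), the exporter Xpo1, the kinases Gsk3b, Akt1, Prkaa1 and Prkaa2 and the ubiquitin ligase Stub1 were not called (-0.39 to 0.35). With the replicate number as a block Prkaa1 was called (adjusted p = 0.0453).

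**Figure D3:**
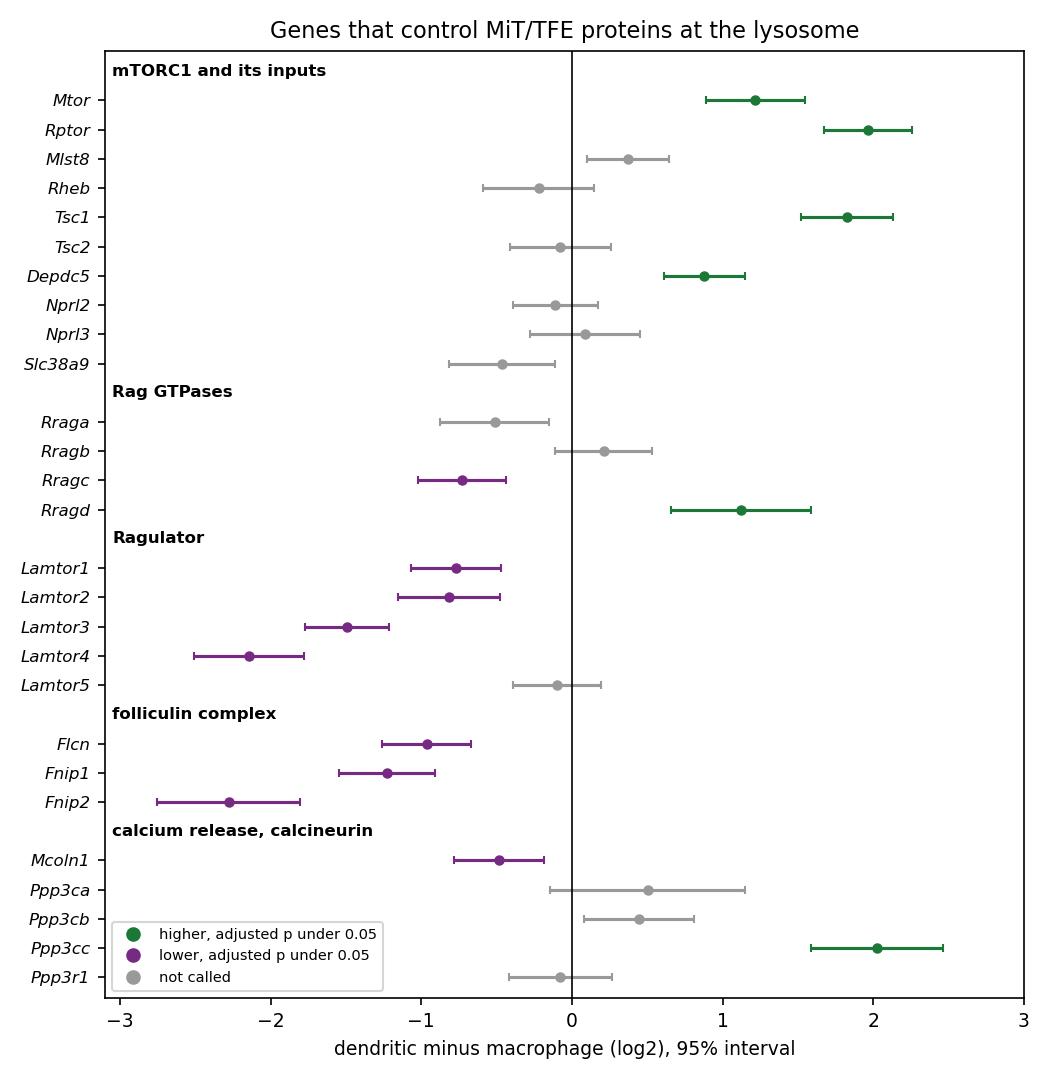
Dendritic minus macrophage difference (x axis, log2, with 95% intervals) of genes that control MiT/TFE proteins, grouped by complex; green is higher and purple lower at an adjusted p under 0.05, grey is not called. Rptor, Tsc1 and Mtor lie to the right, Lamtor1 to Lamtor4 and the folliculin complex to the left, and Rragc and Rragd on opposite sides of 0.

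Genes reported as targets of Mitf, Tfe3 or Tfec in macrophages and osteoclasts were mostly lower. Of 8 measured, 6 were lower and none higher in limma (1 higher at an unadjusted p of 0.05), with a median of -1.56. Over all genes, 11.6% were called lower and 9.98% higher. Acp5, the tartrate-resistant acid phosphatase of osteoclasts, had log2 values of 5.18, 5.72 and 5.31 in dendritic and 9.42, 8.57 and 8.82 in macrophage arrays. The difference was -3.53 ± 0.23 (SE; limma adjusted p = 8.73e-06). The collagen-degrading protease Ctsk (-2.78 ± 0.20) and the lysosomal chloride channel genes Clcn7 (-1.73 ± 0.13) and Ostm1 (-1.26 ± 0.13) were lower as well.

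Csf3r, the G-CSF receptor and a reported Tfec target, had log2 values of 5.43, 5.32 and 4.40 in dendritic and 8.86, 7.65 and 7.43 in macrophage arrays. Its difference was -2.93 ± 0.39 (SE; limma adjusted p = 0.000577), and it was highest in replicate 1 of each population. Csf3r is also a neutrophil gene, and the neutrophil markers were highest in the same arrays; their part in the Csf3r difference was not tested. Without both arrays numbered 1 the Csf3r difference was -2.68 (adjusted p = 0.000128). Gpnmb, a glycoprotein induced by MiT/TFE factors, was bright throughout, at 10.17, 9.52 and 9.83 in dendritic and 11.36, 11.01 and 11.30 in macrophage arrays (-1.38 ± 0.18, adjusted p = 0.000613). The immune receptor Oscar (0.42, adjusted p = 0.0737) and the cadherin Cdh1 (0.24) were not called. Oscar was called without dendritic replicate 1 (adjusted p = 0.0489) or macrophage replicate 1 (0.0330).

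Lysosomal genes of the kind Tfeb and Tfe3 control were lower in most cases. Of 17 V-ATPase subunits, which acidify the lysosome, 11 were lower and none higher (median -0.86; also 0 higher at an unadjusted p of 0.05). Of 32 lysosomal hydrolases and activators 26 were lower and 1 higher (median -1.20), and of 16 membrane and sorting genes 10 were lower and 1 higher (median -0.73). Beside these counts, 11.6% of all genes were called lower and 9.98% higher (median 0.03). The lysosomal amino acid transporter Slc36a1 had log2 values of 4.37, 4.26 and 4.40 in dendritic and 8.58, 8.54 and 8.23 in macrophage arrays, a difference of -4.10 ± 0.14 (SE; limma adjusted p = 3.24e-07). All 3 dendritic values lay below the array medians, so the size of this difference rests on a probe set not known to be above background there. The V-ATPase isoform Atp6v0d2 differed by -5.28 ± 0.31, Tcirg1 by -2.22 ± 0.16 and Atp6ap1 by -1.55 ± 0.11. Among hydrolases the proteases Ctsl (-3.93 ± 0.17) and Ctsd (-3.21 ± 0.15) and the acid lipase Lipa (-3.39 ± 0.25) were lowest. Igf2r, the mannose 6-phosphate receptor that sorts hydrolases (-2.31 ± 0.17), and the cholesterol exporter Npc1 (-1.93 ± 0.14) were lower too.

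Not all lysosomal genes followed. The peptidase Scpep1 (0.62 ± 0.13) and Gnptg, which helps tag hydrolases for sorting (0.68 ± 0.13), were higher. Cd63, Npc2, Ctsh, Gaa and Ids differed by less than 0.03 in either direction and were not called. Of 20 autophagy genes 6 were lower and 3 higher (median -0.18), against 11.6% and 9.98% of all genes. Uvrag (1.38 ± 0.15, limma adjusted p = 0.000186), the cargo receptor Sqstm1 (0.84 ± 0.15) and Nrbf2 (0.69 ± 0.12) were higher, while the conjugation enzyme Atg7 (-1.47 ± 0.13, adjusted p = 4.50e-05), Atg9a (-0.98 ± 0.11) and Atg3 (-0.92 ± 0.21) were lower. The count of lower autophagy genes fell to 3 without macrophage replicate 2.

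The E-box letters CACGTG (the same on both strands) were sought in the promoters of these lysosomal and autophagy genes. Of the 85 measured, 67 had a promoter among those searched. The E-box was in 26 of their 75 promoters (34.7%), against 7.15% of all promoters and 8.24% of promoters of measured genes. The lists were drawn up as genes of the CLEAR network, so a high share follows in part from that choice and is no independent support. The E-box was in 20 of 51 promoters (39.2%) of the genes called lower and in 6 of 24 promoters of the others. Whether these shares differ was not tested. Lists that went both ways held it too, in 6 of 21 promoters (mTORC1, Rag and folliculin axis) and 5 of 21 (other bHLH-Zip factors). It was in 2 of 15 promoters of the kinase, calcineurin and 14-3-3 list and 1 of 17 of the upstream signals. Promoters of one gene can overlap, and a match is a description, not a bound site. The longer palindromic CLEAR element is the E-box with GT before and AC after it, and so overlaps it. This element was in 2 of the 75 lysosomal and autophagy promoters (Cln3 and Igf2r) and in 0.326% of all promoters.

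The E-box stretches below are from the 6 genes with the lowest differences among those called lower with an E-box. The CLEAR element stretches of Cln3 and Igf2r are shown because these genes hold that element. Capitals mark the E-box or CLEAR element, and stretches run 5′ to 3′ on the gene's strand (RefSeq, GRCm38.p6). The 6 E-boxes begin 31 (Slc36a1), 236 (Ctsl), 245 (Ctsd), 227 (Gla), 12 (Ctsa) and 48 (Igf2r) bases before the gene start, and the CLEAR elements 123 (Cln3) and 9 (Igf2r) bases before it.
Slc36a1, plus strand, chr11:55204294-55204329: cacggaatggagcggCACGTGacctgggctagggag
Ctsl, minus strand, chr13:64370736-64370770: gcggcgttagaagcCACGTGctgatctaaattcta
Ctsd, minus strand, chr7:142388052-142388077: tccccCACGTGacctgtatccagtca
Gla, minus strand, chrX:134601212-134601247: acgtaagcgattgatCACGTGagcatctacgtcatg
Ctsa, plus strand, chr2:164833746-164833781: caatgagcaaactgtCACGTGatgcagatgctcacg
Igf2r E-box, minus strand, chr17:12769734-12769769: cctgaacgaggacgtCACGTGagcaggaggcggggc
Cln3, minus strand, chr7:126583335-126583374: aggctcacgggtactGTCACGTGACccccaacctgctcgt
Igf2r CLEAR element, minus strand, chr17:12769691-12769730: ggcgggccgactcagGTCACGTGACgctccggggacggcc
The alpha-galactosidase Gla differed by -2.84 ± 0.25 (SE), the protective protein Ctsa by -2.76 ± 0.14 and Cln3 by -1.34 ± 0.13, each called by limma.

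Pigment and melanocyte genes, not all of them Mitf targets, gave no such picture. Of 14 such genes, 0 were called in limma (2 higher at an unadjusted p of 0.05), where 11.6% of all genes were called lower and 9.98% higher. In both population means 9 stayed under 4.96, as did 8726 of all 19938 genes. Tyr, the first enzyme of melanin synthesis, had means of 3.35 in both, with a difference of 0.01 ± 0.12 (SE). Blocking on the replicate number gave 2 higher genes, Pmel (limma adjusted p = 0.0309) and Slc24a5 (0.0498). Without dendritic replicate 1 only Pmel was called (0.0137). Among mast cell genes Kit was called, and Cpa3, Tpsb2 and Ms4a2 differed by -0.01 to 0.13 and were not called. Gata2 (0.57) was called with the block (0.0269) and without dendritic replicate 2 (0.0228).

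M-box letters were present in both groups of genes. The core TCATGTG, sought on both strands, was in 6 of 9 melanocyte promoters and 2 of 10 promoters of the macrophage and osteoclast targets, against 3.77% of all promoters. The stretches below set a pair of genes that were lower (Acp5, Clcn7) beside a pair that stayed dim (Tyr, Tyrp1), with the core or its reverse complement in capitals, on the gene's strand.
Acp5, minus strand, chr9:22130667-22130703: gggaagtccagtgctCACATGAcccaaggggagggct
Clcn7, plus strand, chr17:25136574-25136610: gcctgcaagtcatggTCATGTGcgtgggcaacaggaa
Tyr, minus strand, chr7:87493513-87493549: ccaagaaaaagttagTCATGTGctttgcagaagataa
Tyrp1, plus strand, chr4:80834151-80834187: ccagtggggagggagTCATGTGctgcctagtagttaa
These letters lie 90, 42, 22 and 47 bases before the start of Acp5, Clcn7, Tyr and Tyrp1. Genes with the same letters differed by -3.53 (Acp5) and -1.73 (Clcn7) or by 0.01 (Tyr and Tyrp1). Tyr and Tyrp1 lay below the array medians in both populations, so their small differences say little. Other melanocyte genes with these letters were Dct (-0.06), Trpm1 (-0.03), Mc1r (0.05) and Slc24a5 (0.43), none called in the main fit.

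**Figure D4:**
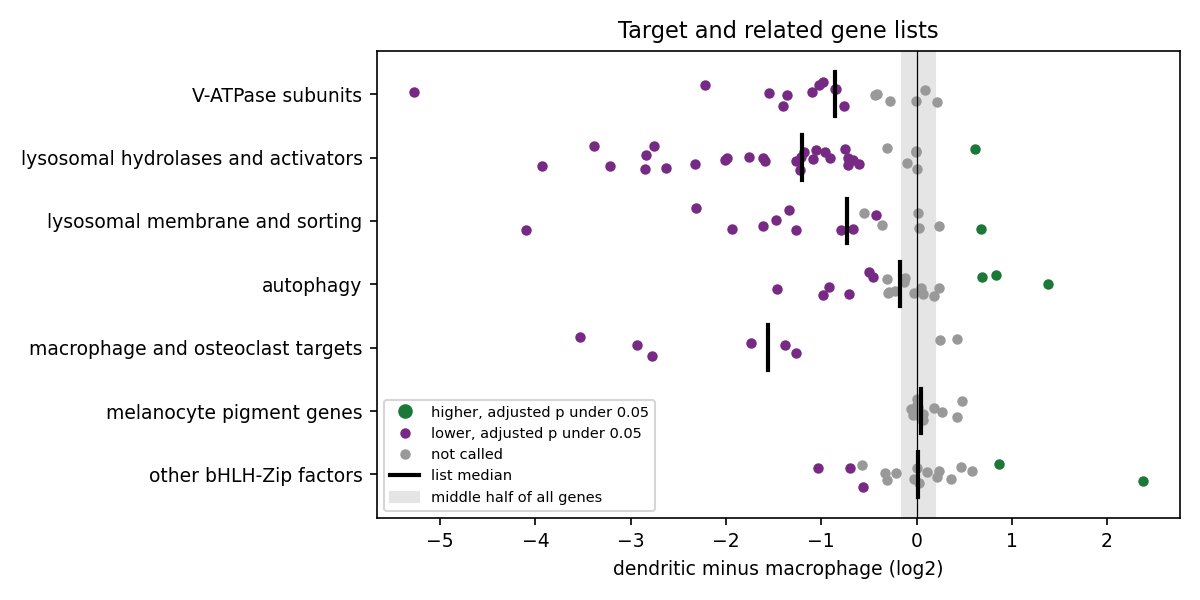
Dendritic minus macrophage difference (x axis, log2) of every measured gene in 7 lists, with black bars at the list medians; green is higher and purple lower at an adjusted p under 0.05, and the grey band spans the quartiles of all genes, -0.16 to 0.20. The V-ATPase, hydrolase, membrane and macrophage target lists lie mostly left of the band, and the melanocyte and other bHLH-Zip lists around it.

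Other bHLH-Zip factors, most of which bind E-boxes too, were mostly not called. Of 18 measured, 2 were higher and 3 lower, with a median of 0.02, where 9.98% of all genes were called higher and 11.6% lower. Blocking on the replicate number gave 4 higher, as did fitting without dendritic replicate 2. Mxd1, a Max-binding repressor, had the largest difference, with log2 values of 9.19, 9.37 and 9.70 in dendritic and 6.99, 6.87 and 7.27 in macrophage arrays (2.38 ± 0.17 SE, limma adjusted p = 1.50e-05). Mycl was higher (0.87 ± 0.19), and Myc (-1.03 ± 0.17) and the common partner Max (-0.70 ± 0.14) were lower.

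The USF factors and the remaining bHLH-Zip genes had differences under 1 in either direction. Usf2 was lower (-0.56 ± 0.13, limma adjusted p = 0.0122), and its call ended on leaving out macrophage replicate 2 (0.0574) or macrophage replicate 3 (0.0553). Usf1, at 0.47 ± 0.15, missed the threshold (adjusted p = 0.0625) but passed it with the block (0.0341) and without dendritic replicate 2 (0.0225). Mxi1 (0.58) and Mxd4 (-0.57) missed it too. They were called with the block (0.00938 and 0.0177) and in some other alternatives, among them without dendritic replicate 2 for Mxi1 (0.0202) and without dendritic replicate 1 for Mxd4 (0.00807). Mycn, Mxd3, Mnt, Mga, Mlx, Mlxip, Mlxipl, Tfap4 and the sterol regulators Srebf1 and Srebf2 were not called (-0.33 to 0.36).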

How the data were processed

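Per the submitters' processing notes, the authors made the deposited log2 values with RMA and R 3.0.2, which corrects background, normalizes by quantiles and summarizes probe sets. Which arrays shared that run is not given here. Per the labels' protocols, 6 ug of total RNA was biotin-labelled. Of 35556 probe sets, 21789 hold a single symbol in the platform's table, 1621 several and 12146 none. Entrez identifiers of 21698 matched RefSeq (GRCm38.p6), with 0 symbols changed. The brightest probe set per gene was kept, with no filter on level.

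Differences were tested on 2 sides in R 4.3.3 by limma 3.58.1, through lmFit then eBayes, with population as the only term and adjustment over all 19938 genes. On simulated data the script picked up 5 of 67 genes given a log2 difference of 0.5, and 58 of 67 given 1. It picked up 66 of 66 given 2, and also 10 genes given none. A gene that was not called can thus still differ by 0.5. The number of arrays limits the precision. Of 257 list entries 240 were measured. Members and lists were chosen with earlier results of these data known. Genes named are the members, all measured genes of the control, target and bHLH-Zip lists, up to 3 called genes with the largest difference per direction from other lists, and the 5 nearest profiles per member, without olfactory or vomeronasal receptors, small RNAs or predicted genes; a few others were named after their values were seen.

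After subtracting population means, arrays sharing a number in their titles correlated at 0.385, 0.147 and 0.272 for numbers 1, 2 and 3, all over 0.1. An alternative fit therefore took numbers as pairs (the block). The main fit and its p-values ignored the numbers. Dendritic 2 with macrophage 3 (0.155) and dendritic 3 with macrophage 2 (0.128) correlated as well, so numbers 2 and 3 are not clearly told apart. What a number stands for is not in the labels. Alternatives were this block, other scalings, filters and weights, and leaving out arrays. Python 3.11.15, pandas 2.3.3, scipy 1.17.1 and matplotlib 3.10.9 were used.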

Additional observations from a re-analysis of the deposited data

How the results depend on the processing

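Over 18 alternatives the Tfec difference stayed between -5.08 and -4.58 and the Mitf difference between -2.55 and -1.59, both always called. The Tfeb and Tfe3 differences kept their sign; over the settings that left out 1 array or both arrays of a number they ran from -0.76 to -0.50 and from -0.73 to -0.53, and some calls were lost. Without both arrays of number 2 the adjusted p was 0.142 for Tfeb and 0.0648 for Tfe3, and without number 3 it was 0.0954 for Tfe3. These settings test fewer arrays. The shift of Tfeb minus Tfe3 was 0.00 (0.0038) after quantile normalization was applied again and ran from -0.14 to 0.14 over the settings that left arrays out. The other 5 pairs kept their sign. Over the settings that left arrays out, the genes called higher numbered 1185 to 2220 and lower 1342 to 2701, and the counts in the lists ran as follows. Other bHLH-Zip factors had 1 to 4 higher and 1 to 4 lower, the kinase, calcineurin and 14-3-3 list 1 to 3 higher and 0 to 2 lower, and upstream signals 3 to 6 higher. Macrophage and osteoclast targets, hydrolases, membrane genes and melanocyte genes each had 0 to 1 higher. Mast cell genes had 1 to 2 higher, and autophagy genes 1 to 3 higher and 2 to 6 lower. With the replicate number as a block, other bHLH-Zip factors had 4 higher, melanocyte genes 2 and mast cell genes 2, and the block changed no call of a family member. With array weights other bHLH-Zip factors had 4 higher, macrophage and osteoclast targets 1, melanocyte genes 1 and mast cell genes 2. Melanocyte genes had 1 higher after quantile normalization was applied again and with either filter on level, and other bHLH-Zip factors 4 higher with the median filter. In the kinase, calcineurin and 14-3-3 list 1 was higher with the trend and robust fit, 1 higher and 0 lower when all probe sets were tested, and 1 lower with 75th percentile centring. Upstream signals had 3 higher when all probe sets were tested. Unless said above, the cause of these changes was not tested. Dim dendritic values limit the sizes of several differences, among them those of Tfec, Mitf, Csf1r, Slc36a1 and Ctsk. Csf3r, Igf2r and Atp6v0d2 also had a dendritic value below the array medians. For Rragd the dim values were those of the macrophage arrays.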
